A study of Sus scrofa with 15 samples.

Results

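By the values of their own entries, 27 genes were on in pig nuclear transfer embryos that had received *KDM4A* mRNA plus GSK126 and close to silent in the other embryos of the same stage. Of these, 12 left the limits when transcripts assembled in their region were added, and 18 kept within them under group medians and all other scalings. The 27 genes were chosen by measured values from the 28224 known genes of the table: the mean had to be at most 10 in untreated 4-cell embryos, at most 10 in 4-cell embryos with induced *TDG* and at least 100 in 4-cell embryos given *KDM4A* plus GSK126. The unit throughout is the normalized signal, which is the number of reads on a gene divided by a factor for its library. The same limits with the groups exchanged gave 3 genes high only with *TDG* and 14 genes high only in untreated embryos. Because the 4-cell values chose the genes, these values are given as a description and carry no test.

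The study asked which barriers keep the genome of cloned pig embryos from being activated. Somatic cell nuclear transfer (SCNT) places a donor nucleus in an egg whose own nucleus was removed. The 15 libraries used here form 5 groups of 3. PFF are primary porcine fetal fibroblasts at passage 2 to 5, the type of cell that gave the nuclei. SCNT4c and SCNT8c are untreated cloned embryos at the 4-cell and 8-cell stage. SCNT4c-KG embryos were injected with *KDM4A* mRNA at 1000 ng/µl 5 h after activation and kept in 0.1 µM GSK126 until 48 h. SCNT4c-TDG embryos came from fibroblasts transfected with a doxycycline-inducible *TDG* vector and selected with puromycin, and received 500 ng/ml doxycycline from 40 to 72 h. The descriptions of the SCNT4c-KG samples repeat the names that the table gives to its untreated 4-cell columns, whereas their titles match the columns headed KG, and the titles were followed. Each embryo library is a pool of 30 embryos, so a gene that is on in few embryos and a gene that is weakly on in all of them cannot be told apart. Embryos with *KDM4A* alone or GSK126 alone, with doxycycline but no *TDG* vector, and fertilized embryos were not analysed here, so the parts of the 2 agents in SCNT4c-KG cannot be told apart.

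Recovered reads were 12354649 to 15390472 in SCNT4c-KG and 17757929 to 22868038 in the other groups. SCNT8c replicate 3 stood apart from its group, with a chi-square per feature of 294 and 457 against replicates 1 and 2, which had 69.8 between them. The oocyte and early embryo markers summed to 39315 to 93719 in the embryo libraries and to 11.5 to 20.3 in PFF, with 11 of 13 at 0 there, while the fibroblast markers summed to at least 3913031 in PFF and to at most 5898 in the embryos. *BMP15*, *GDF9* and *MOS* were at 0 in every embryo group. The cumulus cell markers summed to 276 to 489 in SCNT4c-KG and to 40.7 to 271 in the other embryos, with 5 of 9 at 0 in SCNT4c-KG. There *STAR* (244 against 28.8 to 63.2 in the other embryo groups) and *TNFAIP6* (137 against 24.0 to 79.3) held most of the sum. The blood markers summed to 371 to 509 in SCNT4c-KG against 141 to 390 in the other embryos, and the part of these cells in the values of the 27 genes was not tested. As checks of the treatments and of this assignment, *KDM4A* was 1437, 1476 and 1429 in SCNT4c-KG against 313, 136 and 134 in SCNT4c, 852, 555 and 918 in SCNT4c-TDG, 162, 134 and 47.5 in SCNT8c and 4932, 5150.4 and 4933 in PFF. *TDG* was 56925, 59944 and 49857 in SCNT4c-TDG, 1659.5, 939 and 2541 in SCNT4c, 4474, 3886 and 4738 in SCNT4c-KG, 2340.4, 2052 and 2506 in SCNT8c and 1194, 1237 and 1024 in PFF. *EZH2*, whose protein GSK126 inhibits, was 915, 1027 and 1245 in SCNT4c-KG, 339.9, 344 and 314 in SCNT4c, 1208, 1179.8 and 983 in SCNT4c-TDG, 1035, 1037 and 375 in SCNT8c and 418, 422 and 428 in PFF.

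KDM4A removes methyl groups from lysine 9 of histone H3, a mark of packed chromatin, and EZH2 is the enzyme that places repressive methyl groups on lysine 27. Both marks are inherited with a donor nucleus and are known as obstacles to reprogramming. The 27 genes do not form 1 pathway. Of them, 4 encode the same histidine tRNA, which carries histidine to the ribosome, and 6 are near-identical copies of named genes, 4 of these of ribosomal protein genes. Most others encode proteins, among them a kinase, a regulator of GTPases, transcription factors, metabolic enzymes, proteins of the ubiquitin pathway and a protease inhibitor. Single members of large families and 2 long non-coding RNAs are also in the set. Gene copies and tRNA genes are repeated sequences whose reads are hard to place, so their sequences come first.

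The table lists 7 genes for histidine tRNA (TRNAH-GUG), and all 7 share 1 sequence of 72 bases. The 4 members are given here from the genome of build Sscrofa11.1, because only the flanks tell them apart. Capitals mark the tRNA gene, lower case its 20 flanking bases on each side, and the anticodon GTG begins at base 34 of the capitals.
chr1:126541264-126541335, minus strand: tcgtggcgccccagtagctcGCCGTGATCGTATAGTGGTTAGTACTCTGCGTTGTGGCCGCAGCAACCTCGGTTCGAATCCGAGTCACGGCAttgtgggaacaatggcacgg
chr7:21233980-21234051, plus strand: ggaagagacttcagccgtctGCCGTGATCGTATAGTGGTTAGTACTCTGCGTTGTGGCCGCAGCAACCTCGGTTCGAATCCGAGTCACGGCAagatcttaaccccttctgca
chr4:99287551-99287622, plus strand: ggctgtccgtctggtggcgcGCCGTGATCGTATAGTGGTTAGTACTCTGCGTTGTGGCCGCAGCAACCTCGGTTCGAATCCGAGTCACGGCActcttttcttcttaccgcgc
chr4:99315449-99315520, minus strand: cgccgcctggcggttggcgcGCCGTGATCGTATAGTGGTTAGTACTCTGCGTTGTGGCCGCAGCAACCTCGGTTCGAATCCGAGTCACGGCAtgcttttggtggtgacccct

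The gene on chromosome 1 was 361, 443 and 369 in the 3 SCNT4c-KG libraries and at most 3.07 in any other library. The gene on chromosome 7 was 178, 164 and 137, the gene on the plus strand of chromosome 4 was 165, 171 and 138, and its neighbour on the minus strand, 27826 bases away, was 167, 136 and 123. In PFF all 4 were listed at 0 in each library, and in SCNT8c a single gene, that on chromosome 1, had a value above 0, 2.11 in replicate 3. Another gene of the same sequence, on chromosome 1 from 208060015 to 208060086, had 132, 88.8 and 75.5 in SCNT4c-KG and 0 in the 12 other libraries, which left its mean of 98.9 just under the limit. The last 2, which start at 126541996 and 126543549 on chromosome 1, next to the first member, were listed at 0 in SCNT4c-KG. None of the other 441 tRNA entries reached 100 in SCNT4c-KG, and their highest mean was 36.0. Reads were 150 bases long and only uniquely mapped reads were kept, so a read pair wholly inside the 72 bases would match all 7 genes and would have been dropped. The values thus count reads that reach into the flanks, and the number dropped is unknown.

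**Figure D1:**
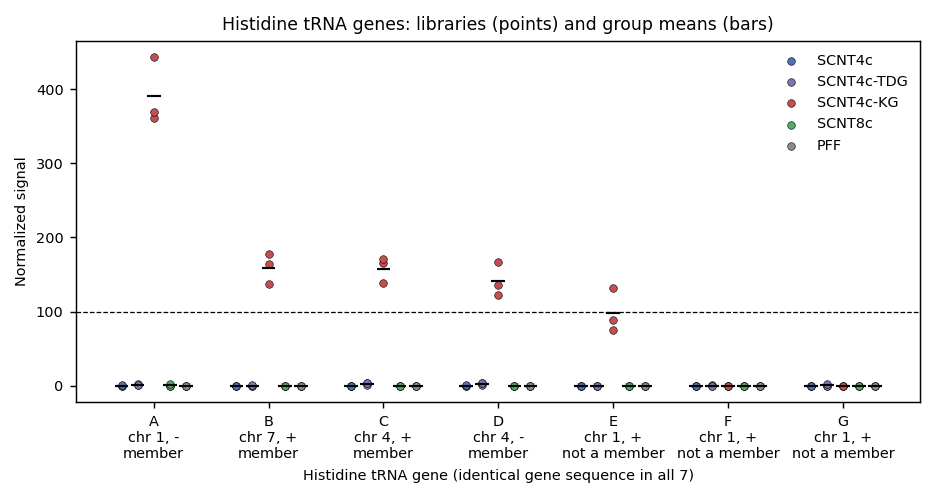
Normalized signal (linear axis) of the 7 histidine tRNA genes, A to G by SCNT4c-KG mean, with points for libraries, bars for group means and a dashed line at 100. Genes A to D are members, E lies just under the limit with a mean of 98.9, and F and G are at 0 in SCNT4c-KG. In the other groups no point exceeds 3.84.

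The pair with the highest signal in SCNT4c-KG resembled the ribosomal protein genes *RPL39* and *RPS27*, which encode parts of the large and the small subunit. LOC100525679 is a single-exon gene annotated as 60S ribosomal protein L39, on chromosome 2 from 14814759 to 14815155 on the minus strand, and matched the *RPL39* transcript at 98.2% identity over 385 bases. The whole coding sequence of *RPL39* (156 bases) and the same stretch of the copy are shown, with the 2 bases that differ in capitals.
LOC100525679: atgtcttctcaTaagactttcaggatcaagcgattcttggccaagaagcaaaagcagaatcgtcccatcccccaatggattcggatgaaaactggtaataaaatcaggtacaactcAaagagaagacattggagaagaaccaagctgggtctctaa
RPL39: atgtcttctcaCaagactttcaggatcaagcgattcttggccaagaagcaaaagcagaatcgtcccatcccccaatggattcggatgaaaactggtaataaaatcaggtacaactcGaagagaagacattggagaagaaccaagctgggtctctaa
LOC110262272, annotated as 40S ribosomal protein S27-like, lies on chromosome 1 from 187670467 to 187670826 on the minus strand and matched *RPS27* at 98.1% over 309 bases. The first 240 of 255 coding bases of *RPS27* follow, again with 2 differing bases in capitals.
LOC110262272: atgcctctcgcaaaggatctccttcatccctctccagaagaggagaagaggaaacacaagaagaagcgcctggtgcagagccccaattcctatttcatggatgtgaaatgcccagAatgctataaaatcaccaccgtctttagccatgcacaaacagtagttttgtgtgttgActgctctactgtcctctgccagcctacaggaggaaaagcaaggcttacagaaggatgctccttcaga
RPS27: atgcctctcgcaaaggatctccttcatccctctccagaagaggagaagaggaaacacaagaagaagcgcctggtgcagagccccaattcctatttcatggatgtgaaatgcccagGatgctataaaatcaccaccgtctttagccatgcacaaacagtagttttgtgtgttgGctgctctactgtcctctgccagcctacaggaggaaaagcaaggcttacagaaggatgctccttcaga

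Every SCNT4c-KG library lay above all SCNT4c and SCNT4c-TDG libraries for all 27 genes, an order that the limits favour and that held for 9.03% of the known genes with a read. For 26 genes the SCNT4c-KG libraries also lay above every SCNT8c and PFF library, against 5.10% of known genes, and the exception was *TALDO1*. The limits favour this order too, since they ask for high values in SCNT4c-KG, so the 5.10% is not a like background. Only 13 of the 27 genes had at least 100 in each SCNT4c-KG library, and the SD was 3.47% to 69.1% of the mean (median 24.8%). The SCNT4c-KG means ran from 103 to 961 with a median of 139.9. The number of reads behind them was 212 to 2027 in SCNT4c-KG, at most 31 in SCNT4c and at most 38 in SCNT4c-TDG. Where the SCNT4c reads exceeded 3 (15 genes), the mean was 12.5 to 286 times that of SCNT4c.

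Each library was also left out of the choice in turn. With each SCNT4c-KG library left out, the limits chose 23, 30 and 29 genes, and 17 (73.9%), 22 (73.3%) and 18 (62.1%) of these had at least 100 in the library left out, against 90.3% to 92.3% of the known genes with a mean of at least 100 in the 2 libraries kept. Their median there was 173, 137 and 123 and their lowest value 60.4, 39.3 and 22.8. With a SCNT4c-TDG library left out, 16 of 27, 18 of 24 and 19 of 27 genes had at most 10 in it, or 59.3% to 75.0%, against 92.3% to 94.5% of the known genes with a mean of at most 10 in the 2 libraries kept. With a SCNT4c library left out, the share at most 10 was 76.7% to 92.3%, against 89.95% to 93.2%. Leaving out SCNT4c library b gave 92.3% against 91.9%, and in the 8 other cases the share was lower for the chosen genes. These shares were not tested. The known genes set beside them had to pass the limit of that group alone. How far past it they lay was not compared with the chosen genes, so they are not a like background. The libraries left out are also among those that chose the 27 genes. Whether the choice would hold in new libraries therefore cannot be read from these shares.

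**Figure D2:**
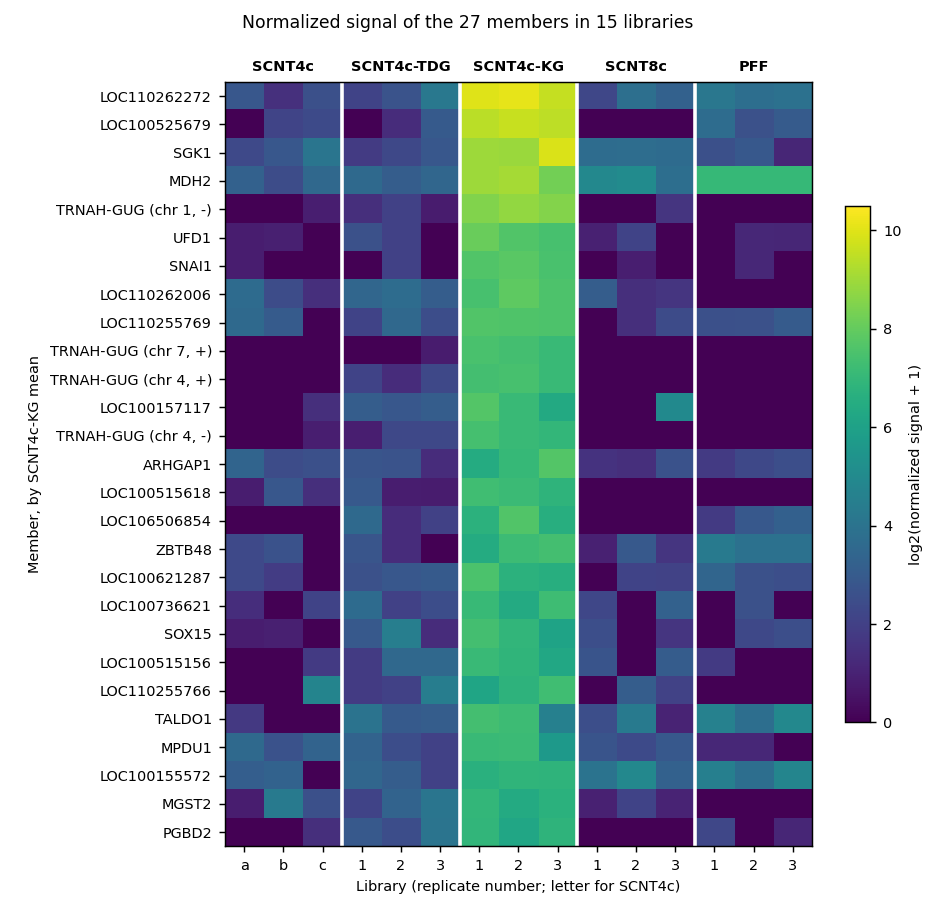
Heat map of log2(normalized signal + 1) for the 27 genes (rows, by SCNT4c-KG mean) in 15 libraries (columns, by group). The SCNT4c-KG columns are bright except for TALDO1 in replicate 3 (22.8), and MDH2 is the 1 row that is also bright in PFF, at 129.9 to 131.

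For 6 members, near-identical copies of a gene that carries its own name, that gene can be set beside the copy. LOC100525679 was 688, 793 and 707 in SCNT4c-KG, with 0, 3.50 and 4.15 in SCNT4c, 0, 1.53 and 6.89 in SCNT4c-TDG, 0 in each SCNT8c library and 12.2, 5.09 and 7.15 in PFF. LOC110262272 was 1019, 1098 and 767 in SCNT4c-KG, with 6.31, 1.75 and 4.98 in SCNT4c, 3.34, 5.37 and 17.6 in SCNT4c-TDG, 3.73, 13.3 and 8.45 in SCNT8c and 17.1, 12.7 and 14.3 in PFF. In both genes the SCNT4c-KG libraries lay far from all others, and in both the gene they resemble was also highest in SCNT4c-KG. *RPL39* was 89.0 ± 30.7 in SCNT4c, 4050.0 ± 829.8 in SCNT4c-TDG, 19957 ± 1052 in SCNT4c-KG, 123 ± 68.6 in SCNT8c and 4073 ± 281 in PFF (mean ± SD, n = 3). *RPS27* was 894 ± 319.6, 4659 ± 178, 30212 ± 3211, 1498 ± 613 and 6973 ± 309.8 in the same order. Per kb of exon, LOC100525679 stood at 4.49% of *RPL39* in SCNT4c-KG and at 0.0852% in SCNT4c-TDG, 0.246% in PFF and 3.52% in SCNT4c, the last on 9 reads. For LOC110262272 and *RPS27* the share was 5.41% in SCNT4c-KG and 0.320% to 0.964% in the other 4 groups. For LOC110262272 the level was thus highest in SCNT4c-KG both as such and relative to *RPS27*, whereas for LOC100525679 the shares in SCNT4c-KG and SCNT4c lay close together.

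The 2 other ribosomal copies are annotated as transcribed pseudogenes. LOC110255769 (chromosome 11 from 54082961 to 54083431 on the minus strand), 97.0% identical to *RPS15A*, was 203, 193 and 189.5 in SCNT4c-KG, the narrowest spread of the members, and 0 to 11.0 in the other libraries. *RPS15A* was 1.69 ± 0.917 in SCNT4c, 162 ± 19.3 in SCNT4c-TDG, 458 ± 6.10 in SCNT4c-KG and 57.2 ± 6.29 in PFF, and per kb the pseudogene stood at 103% of it in SCNT4c-KG. The share was 9.32% in SCNT4c-TDG, 24.2% in PFF and 103% in SCNT8c, and in SCNT4c, where *RPS15A* had 6 reads, it was 863%, so relative to *RPS15A* this copy was not highest in SCNT4c-KG. LOC100155572 (chromosome 7 from 76362969 to 76363844 on the plus strand), 97.2% identical to *RPS3A*, was 99.6, 117 and 111 in SCNT4c-KG, with 7.89, 8.74 and 0 in SCNT4c, 10.03, 7.67 and 3.06 in SCNT4c-TDG, 14.9, 29.1 and 8.45 in SCNT8c and 22.0, 12.7 and 26.2 in PFF. Here the gene it resembles followed another order. *RPS3A* was 19352 ± 1906 in SCNT4c-KG but 27794 ± 12649 in SCNT8c and 26516 ± 1994 in PFF, and per kb the copy stood at 0.554% of it in SCNT4c-KG and 0.0583% to 0.0756% elsewhere.

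The last 2 copies resembled genes outside the ribosome. LOC100515156 (chromosome 9 from 14833333 to 14834957 on the plus strand) matched *ATP1B3*, a subunit of the sodium-potassium pump, at 95.8% over 1535 bases, and was 139, 117 and 78.4 in SCNT4c-KG and at most 10.7 elsewhere. *ATP1B3* itself was 78.8 ± 25.2 in SCNT4c, 9353 ± 703 in SCNT4c-TDG and 19899 ± 3221 in SCNT4c-KG, and the copy's share per kb was 0.550% there against 0.0840% in SCNT4c-TDG and 1.91% in SCNT8c. LOC100736621 (chromosome 9 from 107567372 to 107569477 on the minus strand) matched *PCGF1*, a ring finger protein of a Polycomb complex, at 96.4% over 853 of its 2106 bases, and was 136, 83.8 and 148 in SCNT4c-KG and at most 11.7 elsewhere. *PCGF1* was 1214 ± 299 in SCNT4c, 3441 ± 1385 in SCNT4c-TDG and 8435 ± 1649 in SCNT4c-KG, with a share per kb of 0.645% there and of 0.0598% to 0.330% elsewhere. Reads of a copy and of the gene it resembles can be exchanged at few differing bases. The values of these 6 members, those of the genes they resemble and the shares between them are therefore uncertain. Genes with a near-identical copy held 10.9% to 11.5% of the reads on known genes in SCNT4c-KG and 3.60% to 8.84% in the other groups, and transcripts under 1000 bases held 18.1% to 21.2% against 5.02% to 12.5%. The part of either in the result was not tested.

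**Figure D3:**
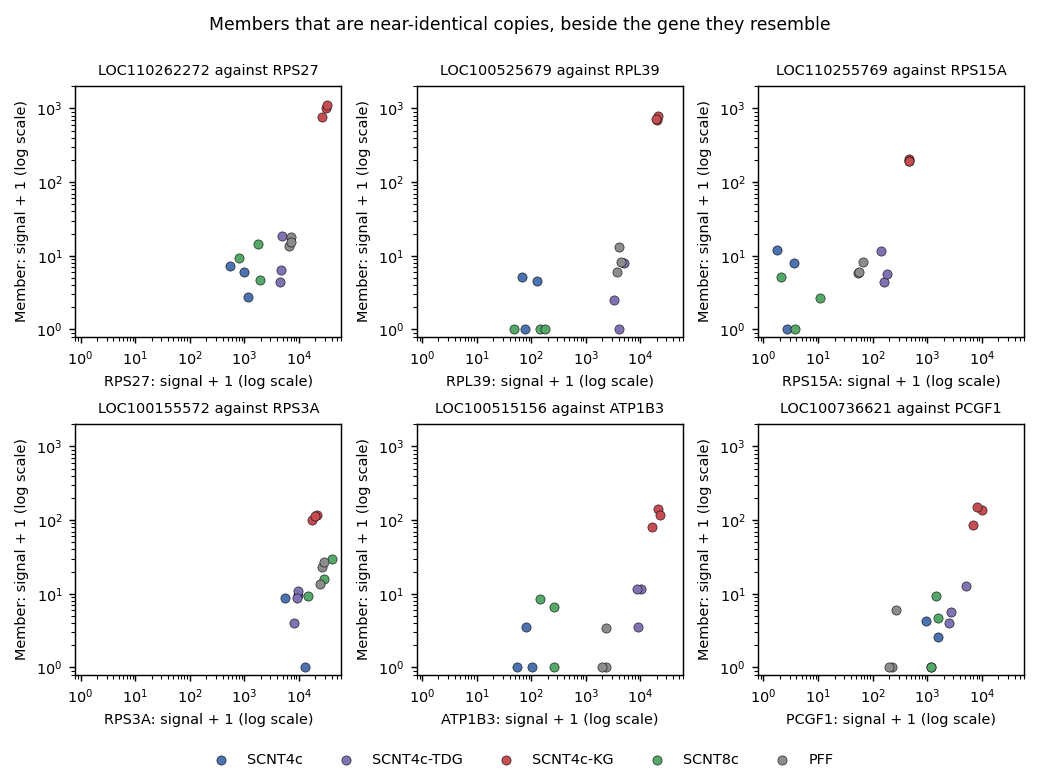
Normalized signal + 1 of 6 members (vertical) against the gene each resembles (horizontal), both on log scales, with 1 point per library coloured by group. The SCNT4c-KG points are the highest on the vertical axis in all 6 panels, while in the RPS3A panel some PFF and SCNT8c points lie further right.

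Among the 27 genes, 4 act in the nucleus. *SNAI1*, a zinc finger repressor that drives cells from an epithelial to a mesenchymal state, lies on chromosome 17 from 51546446 to 51552498 on the plus strand. It was 199, 223 and 179.5 in SCNT4c-KG, with 0.789, 0 and 0 in SCNT4c, 0, 3.07 and 0 in SCNT4c-TDG, 0, 0.831 and 0 in SCNT8c and 0, 1.27 and 0 in PFF. *ZBTB48*, a zinc finger protein that binds telomere repeats, was 86.6, 146 and 164 in SCNT4c-KG, with 3.94, 5.24 and 0 in SCNT4c, 5.85, 1.53 and 0 in SCNT4c-TDG, 0.934, 6.65 and 2.11 in SCNT8c and 18.3, 14.0 and 14.3 in PFF. For both genes the SCNT4c-KG libraries lay above all others while the other embryo groups overlapped, and *SNAI1* had 1 read in all of SCNT4c. *SOX15*, a transcription factor of the SOX family, was 165, 121 and 67.0 in SCNT4c-KG, with 0.789, 0.874 and 0 in SCNT4c, 6.69, 21.5 and 1.53 in SCNT4c-TDG, 4.67, 0 and 2.11 in SCNT8c and 0, 3.82 and 4.77 in PFF, so that a single SCNT4c-TDG library, replicate 2, stood above its group. LOC100621287, annotated as MORF4 family-associated protein 1 and lying on chromosome 8 from 4120784 to 4123079 on the minus strand, was 185, 108 and 94.0 in SCNT4c-KG and at most 9.77 elsewhere. *SOX15* (chromosome 12 from 52882840 to 52885785 on the minus strand) and *MPDU1* (chromosome 12 from 52878924 to 52882854 on the plus strand) face each other and overlap by 15 bases at their ends. *MPDU1*, needed to use mannose from dolichol for glycans, was 137, 141 and 49.9 in SCNT4c-KG, with 11.0, 5.24 and 9.13 in SCNT4c, 9.20, 4.60 and 3.06 in SCNT4c-TDG, 5.60, 4.16 and 6.34 in SCNT8c and 1.22, 1.27 and 0 in PFF. In both genes SCNT4c-KG replicate 3 was the lowest of its group, and whether the counting used the strand is not given in the sources used here.

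The 250 bases before the annotated start are shown for *SNAI1* and *SGK1*, a transcriptional repressor and the kinase of the set, since these stretches differ widely in base composition. Capitals mark letters of a list of 10 transcription factor motifs, searched on both strands.
SNAI1, chr17:51546196-51546445, plus strand: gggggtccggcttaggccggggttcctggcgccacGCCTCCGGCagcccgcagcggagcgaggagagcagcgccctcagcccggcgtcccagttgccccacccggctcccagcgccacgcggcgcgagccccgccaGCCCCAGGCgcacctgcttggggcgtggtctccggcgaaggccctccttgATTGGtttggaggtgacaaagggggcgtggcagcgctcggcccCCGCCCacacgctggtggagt
SGK1, chr1:29625536-29625785, plus strand: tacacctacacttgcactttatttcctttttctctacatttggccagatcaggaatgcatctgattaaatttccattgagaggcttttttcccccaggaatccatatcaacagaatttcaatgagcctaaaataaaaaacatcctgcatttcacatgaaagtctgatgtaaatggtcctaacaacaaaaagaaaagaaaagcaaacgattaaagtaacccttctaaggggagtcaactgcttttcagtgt
The *SNAI1* stretch held 75.2% G+C, 27 CG pairs, 1 SP/KLF box (GGGCGG), 1 NF-Y box (CCAAT) and 2 TFAP2 motifs (GCCNNNGGC). The *SGK1* stretch held 36.0% G+C, 1 CG pair and none of the 10 motifs. The start used is the outermost annotated one of each gene, and where transcription began in these embryos was not tested. Over windows from 250 bases before to 50 after the start, the 17 protein-coding members had a median of 55.7% G+C and 6 CG pairs, against 58.7% and 16 for 19541 protein-coding genes. SP/KLF boxes occurred in 6 of the 17 (50.5% of all protein-coding genes), CCAAT in 8 (35.4%), TFAP2 motifs in 7 (26.2%), the ETS motif CCGGAAG in 3 (11.0%), and TATAAA, the CRE TGACGTCA, the NRF1 motif GCATGCGC, the OTX motif TAATCC and the YY1 motif AAGATGG in 1 each (10.9%, 2.26%, 3.06%, 6.13% and 5.27%). The E-box CACGTG occurred in 0 of the 17 and in 7.91% of all. A match describes letters and not a bound site.

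Signalling in the cytoplasm is the role of 2 members. *SGK1*, a kinase that regulates ion channels and cell survival downstream of hormones, lies on chromosome 1 from 29625786 to 29753619 on the plus strand. It was 498, 482 and 970.4 in SCNT4c-KG, with 3.94, 6.12 and 15.8 in SCNT4c, 2.51, 3.84 and 6.12 in SCNT4c-TDG, 12.1, 12.5 and 11.6 in SCNT8c and 4.89, 6.37 and 1.19 in PFF, a mean 75.5 times that of SCNT4c. SCNT4c-KG replicate 3 was the highest of its group, and the other two lay close together. *ARHGAP1*, which switches off the GTPases CDC42 and RHOA, lies on chromosome 2 from 15834285 to 15854181 on the plus strand and was 86.6, 129 and 204 in SCNT4c-KG, with 9.46, 4.37 and 4.98 in SCNT4c, 5.85, 5.37 and 1.53 in SCNT4c-TDG, 1.87, 1.66 and 5.28 in SCNT8c and 2.44, 3.82 and 4.77 in PFF. Here too replicate 3 was the highest of the group, and of its exonic bases 8.06% overlap another gene.

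Metabolism is the role of 3 further members beside *MPDU1*. *MDH2*, the malate dehydrogenase of the citric acid cycle, lies on chromosome 3 from 10120121 to 10132705 on the minus strand. It was 495, 538 and 311 in SCNT4c-KG, with 8.68, 4.37 and 10.8 in SCNT4c, 10.9, 7.67 and 9.95 in SCNT4c-TDG, 28.9, 32.4 and 12.7 in SCNT8c and 131, 131 and 129.9 in PFF, while a transcript assembled in the same region had a mean of 676 in SCNT4c. *TALDO1*, the transaldolase of the pentose phosphate pathway, on chromosome 2 from 464781 to 472836 on the plus strand, was 162, 147 and 22.8 in SCNT4c-KG, with 2.37, 0 and 0 in SCNT4c, 15.1, 6.90 and 7.65 in SCNT4c-TDG, 4.67, 18.3 and 1.06 in SCNT8c and 23.2, 12.7 and 28.6 in PFF. Its SCNT4c-KG replicate 3 lay within the range of the PFF libraries, so its mean of 111 rests on replicates 1 and 2. *MGST2*, a glutathione transferase of leukotriene synthesis, on chromosome 8 from 87318180 to 87394563 on the minus strand, was 124, 85.0 and 103 in SCNT4c-KG, with 0.789, 19.2 and 4.98 in SCNT4c, 3.34, 9.21 and 16.1 in SCNT4c-TDG, 0.934, 3.33 and 1.06 in SCNT8c and 0 in each PFF library. Of its exonic bases 54.5% overlap another gene, the highest share of the members, so reads on that stretch cannot be told from those of the other gene without strand. Per kb of exon the SCNT4c-KG means were 216 for *MDH2*, 90.9 for *TALDO1*, 83.2 for *MPDU1* and 18.4 for *MGST2*.

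Protein breakdown or its control is the role of 3 members. *UFD1*, which guides ubiquitin-marked proteins of the endoplasmic reticulum to the segregase VCP, lies on chromosome 14 from 51113858 to 51132820 on the minus strand and was 273, 201 and 175 in SCNT4c-KG, with 0.789, 0.874 and 0 in SCNT4c, 5.02, 3.07 and 0 in SCNT4c-TDG, 0.934, 3.33 and 0 in SCNT8c and 0, 1.27 and 1.19 in PFF. LOC110262006, a putative tripartite motif protein 75 on chromosome 8 from 44050353 to 44054068 on the minus strand, was 173, 239 and 189.5 in SCNT4c-KG, with 11.8, 4.37 and 1.66 in SCNT4c, 10.03, 12.3 and 7.65 in SCNT4c-TDG, 7.47, 1.66 and 2.11 in SCNT8c and 0 in each PFF library. Its close copies LOC110261946 (99.4% identical over 1713 bases) and LOC102163398 (99.7% over 1377 bases) had means of 384 and 218 in SCNT4c-KG and of 155 and 3.28 in SCNT4c, so its share of their reads is uncertain. The assembled transcripts of the same region reached 32429 in SCNT4c-KG. LOC100157117, annotated as the serine protease inhibitor kallistatin, on chromosome 7 from 115781772 to 115792469 on the plus strand, was 207, 138 and 82.6 in SCNT4c-KG, with 0, 0 and 1.66 in SCNT4c, 7.53, 6.14 and 7.65 in SCNT4c-TDG, 0, 0 and 30.6 in SCNT8c and 0 in each PFF library. Its only SCNT8c reads were in replicate 3, the library that stood apart.

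The last 4 are of other kinds. The olfactory receptor gene LOC100515618 (chromosome 9 from 4766781 to 4769319 on the minus strand) was 155, 142 and 113 in SCNT4c-KG and 0 in SCNT8c and PFF, and it has near-identical copies among its neighbours in the family. *PGBD2* (chromosome 2 from 52169715 to 52211373 on the minus strand), derived from a piggyBac transposase, was 121, 73.6 and 114 in SCNT4c-KG, with 0, 0 and 1.66 in SCNT4c, 6.69, 4.60 and 15.3 in SCNT4c-TDG, 0 in each SCNT8c library and 3.66, 0 and 1.19 in PFF. The long non-coding RNA LOC106506854 (chromosome 18 from 50479202 to 50509832 on the minus strand) was 106, 201 and 95.5 in SCNT4c-KG, listed at 0 in SCNT4c and SCNT8c, 10.9, 1.53 and 3.06 in SCNT4c-TDG and 2.44, 6.37 and 8.34 in PFF. Its SCNT4c-TDG replicate 1 was the highest library outside SCNT4c-KG. The long non-coding RNA LOC110255766 (chromosome 11 from 22339759 to 22356460 on the minus strand) was 71.9, 109 and 152 in SCNT4c-KG, with 0, 0 and 25.7 in SCNT4c, 2.51, 3.07 and 20.7 in SCNT4c-TDG, 0, 7.48 and 3.17 in SCNT8c and 0 in each PFF library. Its SCNT4c mean of 8.58 came from library c alone.

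The levels in SCNT8c and PFF were not used to choose the genes. In SCNT8c 23 of the 27 genes had a mean of at most 10, none had 100, and 7 were listed at 0 in each library. In PFF 22 had at most 10, 1 (*MDH2*) had at least 100, and 9 were listed at 0. Over all known genes the share at most 10 was 58.6% in SCNT8c and 60.3% in PFF, and the share at least 100 was 20.9% and 27.1%. The members were chosen for low values in SCNT4c and SCNT4c-TDG, so all known genes are not a like background for these counts. A narrower background is the 14245 known genes with at most 10 in both SCNT4c and SCNT4c-TDG, for which the share at most 10 in SCNT8c and PFF was not computed. Of these, 27 (0.190%) reached 100 in SCNT4c-KG, 1 (0.00702%) in SCNT8c and 706 (4.96%) in PFF, and of the members 0 of 27 and 1 of 27 did so in SCNT8c and PFF. The genes with the highest SCNT8c means were *MDH2* (24.7 ± 10.5, SD, n = 3), LOC100155572 (17.5 ± 10.6), *SGK1* (12.1 ± 0.427), LOC100157117 (10.2 ± 17.7) and LOC110262272 (8.50 ± 4.78). In PFF they were *MDH2* (131 ± 0.642), *TALDO1* (21.5 ± 8.07), LOC100155572 (20.3 ± 6.90), *ZBTB48* (15.5 ± 2.41) and LOC110262272 (14.7 ± 2.21). Apart from *MDH2*, none of these levels reached the lowest member mean in SCNT4c-KG, 103. All these levels are of the gene entries alone. With the assembled transcripts of each region added, SCNT8c means reached 22728 for LOC110262006, 1951 for *ARHGAP1*, 416 for *MDH2* and 298 for LOC100515156. In PFF they reached 177 for *TALDO1*, 176 for *ARHGAP1* and 132 for *MDH2*. The other sums stayed under 100, and whether the added transcripts belong to the members was not tested.

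SCNT8c was tested against PFF over 18448 features with a mean of at least 10 in the 6 libraries, of which 70.5% differed (limma adjusted p under 0.05 and more than 2-fold), 33.7% higher and 36.8% lower in SCNT8c. Only 4 of the 27 genes passed the minimum, so the test says nothing of the other 23. *MDH2* was lower in SCNT8c, with no overlap between the libraries, at 28.9, 32.4 and 12.7 against 131, 131 and 129.9 in PFF. Its log2 difference was -2.46 ± 0.45 (standard error, n = 3 per group, limma adjusted p = 0.00308), and it stayed between -2.70 and -1.79 over 17 alternatives, with adjusted p from 1.66e-05 to 0.0208. That direction is of the gene entry alone. An assembled transcript in the region of *MDH2* had 391 in SCNT8c and 1.61 in PFF. The known gene *STYXL1* of the same region had 759 and 25.2, and which gene the transcript belongs to was not tested. In a fit added after seeing the data, the assembled transcripts of each region were added to its known genes. The sum for *MDH2* was then 416 in SCNT8c and 132 in PFF, a log2 difference of 1.51 (limma adjusted p = 0.0184). In the same fit *TALDO1* was lower in SCNT8c, with sums of 12.3 and 177 (-3.82, limma adjusted p = 0.000330). The log2 difference was -1.82 ± 0.89 for *TALDO1* (limma adjusted p = 0.106), -0.86 ± 0.56 for LOC110262272 (limma adjusted p = 0.202) and -0.31 ± 0.59 for LOC100155572 (limma adjusted p = 0.651). These 3 did not pass. With assembled transcripts added, 6 members were higher and 2 lower of 13 tested, where 69.8% of all features differed. In the fit without these transcripts, called members were 0 higher and 1 lower, a share of the 4 tested that is too small to set against 70.5%. Differences of this fit are on the log2(value + 1) scale and understate those of low genes. Nothing in the labels says that the 3 libraries of a group came from separate experiments, so the p-values measure only the spread between these libraries. The median log2 difference of all features was -0.15 with the deposited scaling and 0.71 after scaling all libraries to 1 common total, and 47.8% of the called features were higher in SCNT8c against 57.2%; relative to that median *MDH2* was at -2.31 and -2.50, and LOC100155572 at -0.16 and -0.37. Without SCNT8c replicate 3 *MDH2* was at -2.06 (limma adjusted p = 0.000558), and *ZBTB48*, which then passed the minimum, was at -2.10 (limma adjusted p = 0.0334). Without SCNT8c replicate 1 *ZBTB48* was at -1.75 (limma adjusted p = 0.0419). Without SCNT8c replicate 2 *TALDO1* was at -2.65 (limma adjusted p = 0.0160).

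**Figure D4:**
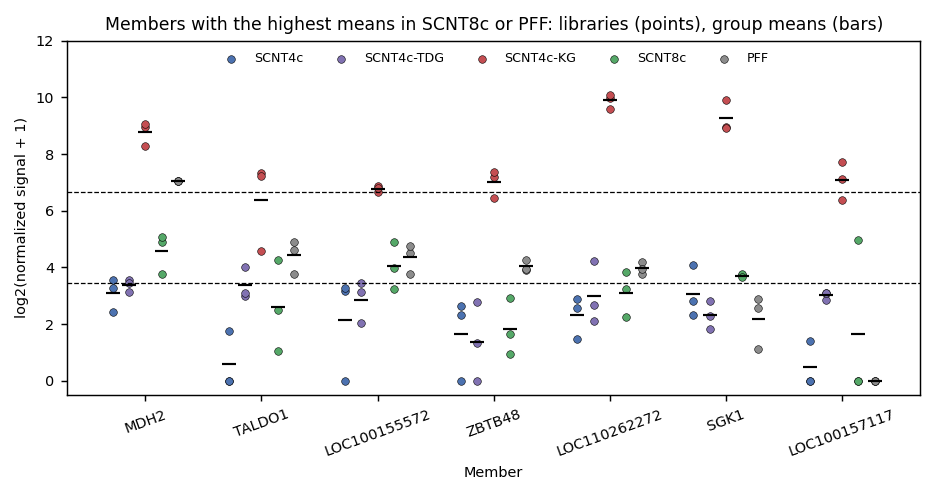
log2(normalized signal + 1) of the 7 members with the highest means in SCNT8c or PFF, with points for libraries, bars for the mean of the log2 values, and dashed lines at signals of 10 and 100. Only MDH2 in PFF, at 129.9 to 131, lies above the upper line outside SCNT4c-KG.

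The table also lists transcripts that the authors assembled from the reads, and 17 members lie in a region with at least 1 of them, 40 in all. Such a region can hold several genes. When the assembled transcripts of a region were added to its known gene, 15 of the 27 genes still met the limits, and 12 did not: *SGK1*, *MDH2*, *UFD1*, *ARHGAP1*, *SOX15*, *TALDO1*, *MPDU1*, *MGST2*, *PGBD2*, LOC110262006, LOC100515156 and LOC100736621. The transcript in the region of *MDH2* had a mean of 676 in SCNT4c, 48.8 in SCNT4c-TDG and 150 in SCNT4c-KG. *STYXL1*, another known gene of that region, had 2136, 297 and 316 in the same order. In the region of *UFD1* one transcript had 2.19 in SCNT4c, 12.7 in SCNT4c-TDG, 174 in SCNT4c-KG, 1.53 in SCNT8c and 0.832 in PFF, an order like that of *UFD1* itself. Whether such a transcript belongs to the member or to a neighbour was not tested, so a low value of these 12 genes does not show that their region was silent. The amounts added differed widely. The transcript at *SGK1* had 0.583 in SCNT4c and 8.36 in SCNT4c-TDG, whereas 1 of those at *ARHGAP1* had 1575 in SCNT4c. *SNAI1*, *ZBTB48*, the 4 tRNA genes and both coding ribosomal copies kept within the limits. The scaling of the libraries mattered too. *MDH2*, *TALDO1*, *SOX15*, *MGST2*, *PGBD2*, LOC110262272, LOC110262006, LOC100515156 and LOC110255766 left the limits both after scaling to a common total and with TMM factors, another scaling of the reads.

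Some features that the choice did not use are given here beside those of all known genes. A near-identical copy (at least 95% identity over 150 bases or the whole transcript) existed for 12 of the 27 genes (44.4%), against 9.48% of 28129 known genes placed on the genome. A single exon was found in 11 (40.7% against 13.2%), and fewer than 1000 exonic bases in 8 (29.6% against 18.8%). By type, 17 were protein-coding (63.0% against 69.5%), 4 were pseudogenes (14.8% against 8.37%), 4 were tRNA genes (14.8% against 1.53%) and 2 were long non-coding RNAs (7.41% against 19.3%). They lay on 13 chromosomes, with at most 4 on 1 of them, and 6 had exons that overlap another gene (22.2% against 18.9%). By symbol, the set held 4 of 448 tRNA entries and 12 of 11055 predicted LOC genes. No test was run on these shares.

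The limits divide a continuum. Just inside the SCNT4c limit were *SGK1* and LOC110255766, with means of 8.61 and 8.58. Just outside was *DPCD*, with 3.94, 2.62 and 24.1 in SCNT4c, 4.18, 3.84 and 6.89 in SCNT4c-TDG, 201, 278 and 217 in SCNT4c-KG, 5.60, 4.16 and 0 in SCNT8c and 6.11, 3.82 and 2.38 in PFF. The next was *NOTCH3*, a signalling receptor, with 12.6, 4.37 and 14.1 in SCNT4c, 0, 3.07 and 6.12 in SCNT4c-TDG, 131, 112 and 117 in SCNT4c-KG, 0, 0 and 2.11 in SCNT8c and 18462, 20625 and 14512 in PFF. Just inside the SCNT4c-TDG limit were LOC110262006 and *SOX15*, with 9.99 and 9.90. Outside it stood *DCAKD*, with 7.10, 14.9 and 4.98 in SCNT4c, 12.5, 5.37 and 12.2 in SCNT4c-TDG, 119, 132 and 76.9 in SCNT4c-KG, 4.67, 14.96 and 1.06 in SCNT8c and 359, 308 and 358 in PFF. Beyond it LOC110260054 had 9.46, 5.24 and 8.30 in SCNT4c, 4.18, 7.67 and 19.9 in SCNT4c-TDG, 310.4, 151 and 174 in SCNT4c-KG, 0.934, 0.831 and 1.06 in SCNT8c and 0 in each PFF library. Just inside the lower limit in SCNT4c-KG were *PGBD2* and *MGST2*, with 103 and 104. The histidine tRNA gene at 208060015 on chromosome 1 (98.9) and LOC100621400 lay just outside, the latter with 0 in each SCNT4c library, 1.67, 3.84 and 1.53 in SCNT4c-TDG, 160.1, 50.8 and 84.1 in SCNT4c-KG, 0, 1.66 and 2.11 in SCNT8c and 0, 7.64 and 7.15 in PFF. At each limit, the genes just inside and just outside thus lay closer to each other than their own libraries did, and *NOTCH3* was far higher in PFF than any member.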

How the data were processed

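RNA was amplified by the SMARTer method and sequenced as paired reads of 150 bases. Per the labels and methods, the authors trimmed reads (Trimmomatic 0.39) and mapped them with STAR 2.5.3a against build Sscrofa11.1. Reads with a single mapping position went on to transcript assembly (StringTie 2.1.2) and counting with HTSeq, and the counts were normalized. The deposited values are a signal per gene, the count divided by a library factor. Dividing each library by the worth of 1 read gave whole numbers for 100% of its entries (tolerance 0.01), which recovered the reads. The strand setting of the counting is not given in the sources used here. Depth was 12354649 to 22868038 reads.

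Of 43535 entries, 241 repeats were removed, which left 28224 known genes and 15070 assembled transcripts. No sample column remained unmapped. The untreated 4-cell libraries are called a, b and c because their labels number them in 2 ways, and the SCNT4c-KG libraries were assigned by title, against descriptions that repeat the column names of the untreated group. SCNT8c and PFF were compared with limma 3.58.1 (R 4.3.3) on log2(signal + 1) over features (known genes and assembled transcripts) with a mean of at least 10 in the 6 libraries, with Benjamini-Hochberg adjustment and calls at adjusted p under 0.05 and more than 2-fold. edgeR 4.0.16 and DESeq2 1.42.0 on the recovered reads were alternatives, beside other scalings, pseudocounts, minimum means, libraries left out and, added after seeing the data, sums with assembled transcripts, and the limma, edgeR and DESeq2 fits were tested on simulated counts. Copies were searched with blastn 2.17.0+ and sequences read from the RefSeq genome and annotation, in which 28129 known genes (99.7%) were placed. The members, lists and limits were chosen with earlier results of these data known. Given in every library were the 10 members with the highest SCNT4c-KG mean and a symbol starting with neither LOC nor TRNA, the 5 highest in SCNT8c and in PFF, members past the test, and the 2 genes on each side of each limit. The other members given by library were added as members of a functional group.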

Additional observations from a re-analysis of the deposited data

Results flagged for a closer look

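Assembled transcripts could not be members. At the regions of the 27 genes, 9 of them had a mean of at least 10 in SCNT4c-KG and lay above every SCNT4c library in each SCNT4c-KG library. In the region of LOC110262006 the transcripts MSTRG.79741, MSTRG.79742 and MSTRG.79746 had SCNT4c-KG means of 32429, 23713 and 7139, against 4956, 4115 and 312 in SCNT4c. All 3 were listed at 0 in PFF. MSTRG.126305 at *UFD1* had a mean of 174 in SCNT4c-KG against 2.19 in SCNT4c. MSTRG.21585 at *PGBD2* had 156 against 28.0, and was higher still in SCNT4c-TDG, at 268. MSTRG.108801 at *SOX15* and *MPDU1* had 87.3 against 28.6. The last 3 were low, with 29.1 against 0.583 for MSTRG.1923 at *SGK1*, 27.7 against 4.94 for MSTRG.92010 at LOC100736621 and 19.2 against 6.26 for MSTRG.19747 at *ARHGAP1*.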

How the results depend on the processing

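The number of genes within the limits was 4 with limits of 5 and 200 (*SNAI1*, *UFD1*, LOC100525679 and the tRNA gene on chromosome 1), 215 with limits of 20 and 50, 8 with every library past its limit and 16 with assembled transcripts added, of which 15 were among the 27. It was 33 with group medians, 18 after scaling all libraries to 1 common total, 37 with quantile normalization, 20 with TMM factors and 23 to 30 with each library left out, and 18 of the 27 genes remained under the medians and all 3 scalings. The other 9 all left with the common total and with TMM, and LOC110262006 and LOC100515156 also with medians. *MDH2* fell under 100 in PFF with the common total, which left 0 members at that level. Between SCNT8c and PFF, 2 members were higher and 4 lower of 23 tested with all features above 0, where 47.9% of all features differed. With quantile normalization 3 of 5 were lower (67.1% of all features differed). The fit of all 15 libraries gave 2 higher and 4 lower of 27 (69.5% of all features differed), but 24 of these passed the minimum mean only through the SCNT4c-KG values that chose them, so that count supports nothing. With assembled transcripts added to the known genes of their region (added after seeing the data), 6 were higher and 2 lower of 13 tested, 69.8% of all features differed, and *MDH2* turned to 1.51. Leaving out a library gave 1 to 2 lower of 4 to 5 tested, and 2 without SCNT8c replicate 1, 2 or 3, while 60.0% to 75.7% of all features differed. The difference of LOC100155572 turned to 0.33 with the common total, 0.34 with edgeR, 0.34 with DESeq2 and 0.10 without SCNT8c replicate 3, with -0.74 without replicate 2 and -0.87 as the lowest value. The first 3 of these go with a median of all features of 0.71, 0.69 and 0.73, below which the gene stayed (-0.37, -0.35 and -0.39 relative to it), and without SCNT8c replicate 3 it lay 0.42 above the median. *TALDO1* passed with assembled transcripts added (-3.82), with quantile normalization (-2.48, limma adjusted p = 0.0474) and without SCNT8c replicate 2. The cause of the other changes was not tested, except that more members were tested without the minimum. The replicate numbers did not pair the libraries (correlations of -0.0138, 0.0146 and -0.0173), and with a replicate block 0 members were higher and 1 lower. Over all features 13013 differed, 12508 by edgeR and 13408 by DESeq2. Depth limits the low values: 1 read was worth 0.765 to 0.874 in SCNT4c and SCNT4c-TDG, and the members' means there rest on at most 31 and 38 reads.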

Other observations

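Neighbours of 2 members had values of a like order. LOC110261945, next to LOC110262006, had means of 0.554 in SCNT4c, 18.02 in SCNT4c-TDG, 172 in SCNT4c-KG and 1.21 in SCNT8c, and was listed at 0 in PFF. C14H22orf39, next to *UFD1*, had 8.57 in SCNT4c, 3.63 in SCNT4c-TDG, 69.2 in SCNT4c-KG and 5.92 in SCNT8c, but 84.9 in PFF. Both were picked after their values were seen.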
